A study of Sus scrofa with 6 samples.

Results

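The apical endocytic receptor complex was followed through 8 genes, chosen by symbol: the receptors LRP2 (megalin) and CUBN (cubilin), the cubilin partner AMN (amnionless), the adaptor DAB2, the chaperone LRPAP1, the endosomal transporter CLCN5, the phosphatase OCRL and the recycling receptor FCGRT. All 8 had 1 row each among the 17670 genes of the deposited count table, and all 8 were among the 12701 genes with enough reads to be tested. The list was drawn up with earlier results of the same comparison known. The changes of these 8 genes are therefore given as a description, without p-values, and "called" means only that a gene passed an adjusted p of 0.05 in the test across all genes. The libraries came from cultured cells labelled immature Sertoli cells, taken from the testis of pig fetuses (gestational age 80 to 90 days). After 6 h of culture 3 samples received 250 µM AA2P, the magnesium salt of L-ascorbic acid 2-phosphate and thus a phosphate ester of vitamin C, and 3 samples served as controls. All 6 were grown in the same serum-containing medium. The sources used here do not say how long the cells were exposed. The labels do not say whether the samples of a group are separate cultures or animals, so their spread may be technical.

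Megalin and cubilin are very large receptors that absorptive epithelia carry on their apical face, best known from the proximal tubule of the kidney, and also from the ducts that drain the testis. They bind filtered proteins and the carriers of vitamins, enter clathrin-coated pits, release their cargo in acidified endosomes and return to the surface. Cubilin has no membrane-spanning segment of its own and depends on amnionless to reach and stay at the membrane, and in humans loss of CLCN5, OCRL, LRP2 or CUBN lets protein pass into the urine.

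In the AA2P cells both receptors and amnionless were several-fold higher than in control cells, CLCN5 and DAB2 rose by less than 2-fold, and LRPAP1, OCRL and FCGRT differed little. With the TMM scaling (trimmed mean of M-values, which sets library factors from the bulk of genes) 8 of 8 genes were called, 5 higher and 3 lower, where 52.1% of all tested genes were called, 26.0% higher and 26.1% lower. With TMM factors the 3 AA2P and 3 control libraries did not overlap for any of the 8, as for 59.3% of all tested genes. With library totals as the scaling the same 5 genes were called higher and none of the other 3 was called. Of all 12701 tested genes 5727 were then called higher and 1822 lower. Nothing was read from the counts of the 8 genes, since the list was chosen with them known.

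LRP2, which encodes megalin, had 742, 697 and 474 CPM (reads relative to library size) in AA2P libraries 1 to 3, against 92.6, 65.1 and 82.5 CPM in control libraries 1 to 3. The lowest AA2P library, library 3, was still far above the highest control. The means were 637 ± 144 CPM with AA2P and 80.1 ± 13.9 CPM in controls (SD, n = 3 each), and the log2 fold change was 2.99 ± 0.14 (± standard error, as in all log2 fold changes below), or 7.94-fold higher. This increase ranked 77 among the 12701 tested genes. Without AA2P library 3 it was 8.97-fold, and over the 6 fits that each left out 1 library the log2 fold change stayed between 2.86 and 3.17.

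CUBN, which encodes the peripheral receptor for intrinsic factor with vitamin B12, albumin and other proteins, had 50.5, 40.9 and 36.6 CPM in AA2P libraries 1 to 3, against 11.8, 12.9 and 12.2 CPM in the controls. Again AA2P library 3 was the lowest of its group and lay above all controls. Mean CUBN was 42.7 ± 7.13 CPM with AA2P and 12.3 ± 0.532 CPM in controls (SD, n = 3 each), with a log2 fold change of 1.79 ± 0.11, or 3.46-fold higher.

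AMN, which encodes the membrane anchor of cubilin, rested on few reads: 29, 26 and 20 reads in AA2P libraries 1 to 3, against 3, 1 and 2 reads in the controls. Every control library was at or under 3 counts, the upper limit for a gene with no read in a library, and AMN passed the filter on low counts only through the AA2P libraries. The summed reads, 75 with AA2P and 6 in controls, gave a depth-scaled ratio of 11.8 with an exact 95% interval of 5.18 to 33.2, which covers counting error only. The fitted log2 fold change was 3.49 ± 0.47.

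**Figure D1:**
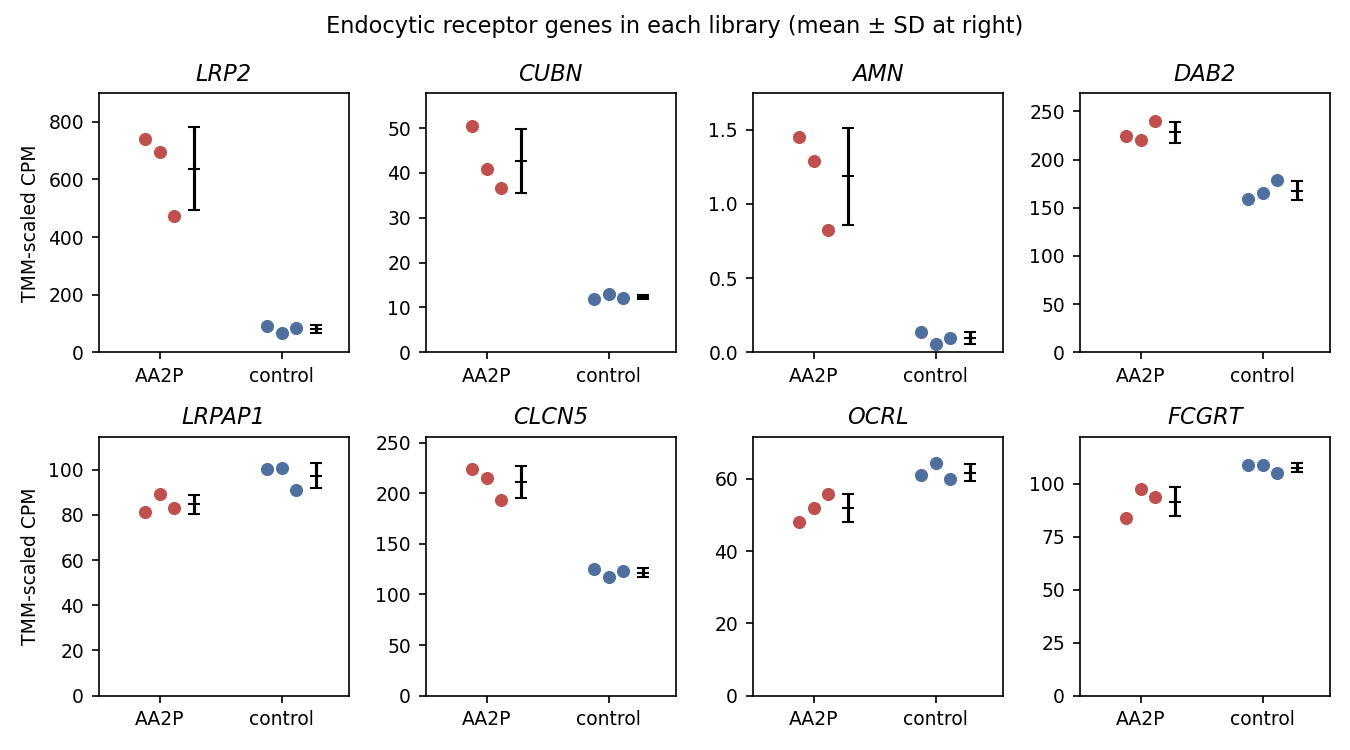
TMM-scaled CPM (y axis, from 0, its own scale for each gene) of the 8 genes in the 3 AA2P libraries (red points, libraries 1 to 3 from left to right) and the 3 control libraries (blue points), with the group mean and SD as a bar at the right of each group. LRP2, CUBN and AMN stand clear of the controls, with AA2P library 3 the lowest of its group for each, while LRPAP1, OCRL and FCGRT lie slightly under the controls.

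DAB2, the adaptor that binds the tail of megalin and links it to clathrin and the AP-2 complex, had 224, 220.2 and 240.0 CPM with AA2P, against 159, 165 and 178 CPM in controls. Here AA2P library 3 was the highest of its group. Its log2 fold change was 0.45 ± 0.06, or 1.36-fold higher. In the RefSeq pig gene table DAB2 overlaps a long non-coding RNA, the only one of the 7 genes placed on a chromosome there to overlap another gene, so some of its reads may be shared.

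CLCN5, the chloride-proton exchanger of endosomes, had 224, 216 and 193 CPM with AA2P, against 125, 117 and 123 CPM in controls. All AA2P libraries were higher than all controls. The means were 211 ± 16.0 CPM with AA2P and 122 ± 4.30 CPM in controls (SD, n = 3 each), and the log2 fold change was 0.79 ± 0.06, or 1.73-fold higher.

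The remaining 3 genes lay slightly lower with AA2P, by amounts close to the shift between scalings. LRPAP1, the endoplasmic reticulum chaperone that keeps megalin from binding ligands too early, had 81.4, 89.4 and 83.1 CPM with AA2P, against 100.2, 100.8 and 90.8 CPM in controls. OCRL, a phosphoinositide phosphatase of endosomes and coated vesicles, had 48.1, 51.8 and 55.8 CPM with AA2P, against 60.9, 64.2 and 59.8 CPM in controls. FCGRT, the heavy chain of the neonatal Fc receptor that returns antibody and albumin to the surface, had 83.8, 97.5 and 93.5 CPM with AA2P, against 109, 109 and 105 CPM in controls. With TMM factors the highest AA2P library of each was under the lowest control library, by a margin of a few CPM, while as shares of the library total the groups overlapped for all 3. The log2 fold changes were -0.20 for LRPAP1 (95% interval -0.32 to -0.08), -0.25 for OCRL (-0.38 to -0.11) and -0.23 for FCGRT (-0.35 to -0.11), while scaling by library totals put LRPAP1 at -0.03, OCRL at -0.08 and FCGRT at -0.06 and none was called. Over all tested genes the median was -0.00049 with TMM factors and 0.17 with library totals, so the 3 genes lay about as far under the median of all genes under either scaling.

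**Figure D2:**
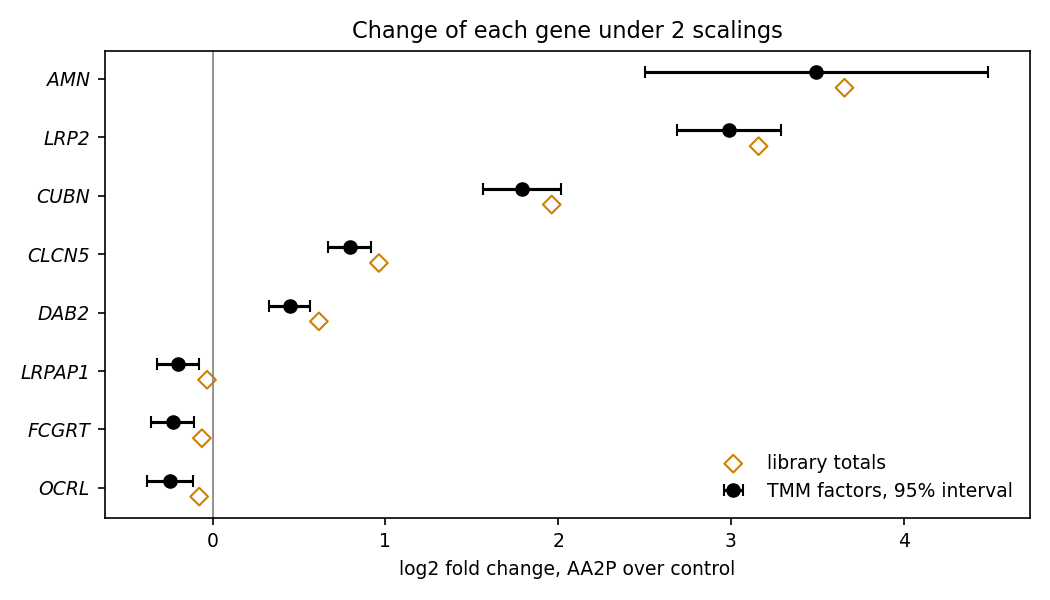
Log2 fold change of each gene (x axis, AA2P over control). Black points are the TMM fit with its 95% interval, and open orange diamonds are the fit with library totals. AMN, LRP2, CUBN, CLCN5 and DAB2 lie above 0 under both scalings, and LRPAP1, FCGRT and OCRL lie below 0 with TMM factors and at -0.08 to -0.03 with library totals.

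Ratios of reads between 2 genes of the same library do not depend on how libraries are scaled, and they showed how unevenly the complex moved. There were 9.11, 7.80 and 5.70 LRP2 reads for each LRPAP1 read in AA2P libraries 1 to 3, against 0.924, 0.645 and 0.909 in the controls. Receptor reads thus outnumbered chaperone reads in every AA2P library and in no control library, although read numbers of 2 genes also depend on transcript length, which was not used here. The LRP2 to CUBN ratio averaged 14.9 ± 2.07 with AA2P and 6.55 ± 1.40 in controls (SD, n = 3 each), and the groups did not overlap. CLCN5 had 4.09 ± 0.601 reads for each OCRL read with AA2P and 1.98 ± 0.135 in controls (SD, n = 3 each), again without overlap. The LRPAP1 to FCGRT ratio, 0.925 ± 0.0423 with AA2P and 0.904 ± 0.0349 in controls (SD, n = 3 each), did overlap. LRP2 supplied 51.0%, 49.3% and 40.3% of the reads of the 8 genes in AA2P libraries 1 to 3, against 14.1%, 10.3% and 12.7% in the controls.

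**Figure D3:**
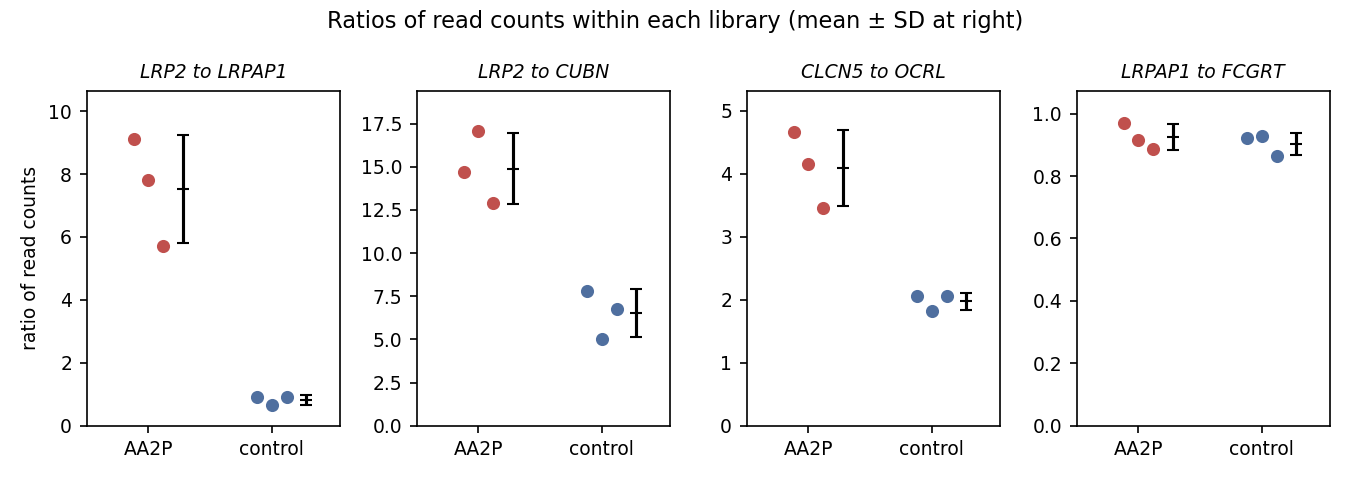
Ratio of read counts of 2 genes within a library (y axis, from 0, its own scale in each panel) in the 3 AA2P (red) and 3 control (blue) libraries, with the mean and SD at the right of each group. The first 3 ratios separate the groups, and LRPAP1 to FCGRT lies between 0.864 and 0.971 in all 6 libraries.

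Within a group LRP2 was more variable than most genes of its level. Its coefficient of variation was 22.5% over the AA2P libraries and 17.4% over the controls. Genes of a like level, with a mean CPM within 1.5 times that of LRP2 in the same group, had a median of 3.75% over the AA2P libraries (198 genes) and 3.42% over the controls (2409 genes). The spread of LRP2 exceeded that of 99.5% of these genes with AA2P and 99.9% in the controls. CUBN was variable with AA2P, at 16.7% against a median of 5.43% for genes of its level, and not in the controls, at 4.33% against 6.64%. DAB2 was at 4.60% with AA2P, close to its like-level median of 4.62%, and at 5.95% in controls, above the median of 3.06% and above 92.7% of genes of its level. LRPAP1 was at 4.97% with AA2P against a median of 4.88%, and at 5.76% in controls against 3.29%, above 86.6% of genes of its level.

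AA2P library 3 as a whole lay nearer the controls, with a mean correlation of log2 CPM to the control libraries of 0.970, against 0.959 and 0.961 for AA2P libraries 1 and 2. Its level relative to the mean of the other 2 AA2P libraries was 0.658 for LRP2, 0.802 for CUBN, 0.600 for AMN and 0.878 for CLCN5. For LRPAP1 it was 0.973, for FCGRT 1.03, for DAB2 1.08 and for OCRL 1.12. Without this library all 8 genes kept their calls, and their log2 fold changes were 3.17 for LRP2, 1.90 for CUBN, 3.72 for AMN and 0.86 for CLCN5. Library totals ran from 18747307 to 23521291 reads over the 6 libraries.

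The labelled cell type was checked against marker genes, and the receptor changes ran beside changes in these. Of 11 Sertoli cell markers 8 had a row and 4 had enough reads to be tested, of which 3 fell and none rose. Over all tested genes 52.1% were called with TMM factors, 26.0% higher and 26.1% lower. Called counts in this and the other marker lists rest on few genes and are given as a description beside that share. SOX9, a transcription factor taken here as a Sertoli marker, had 2.22 ± 0.459 CPM with AA2P and 11.6 ± 0.647 CPM in controls. WT1, another such factor, had 23.8 ± 4.20 and 40.7 ± 4.21 CPM in the same order (SD, n = 3 each for both genes). INHA, which encodes inhibin alpha, had no read in any AA2P library and at most 0.0551 CPM in the controls, and DHH, KITLG and NR5A1 were at or under 0.287 CPM in every library. AMH, the anti-Müllerian hormone of immature Sertoli cells, was present at 34.4 ± 2.35 CPM with AA2P and 36.4 ± 1.52 CPM in controls (SD, n = 3 each), and was not called. The summed level of the Sertoli markers was 57.4 to 71.9 CPM with AA2P and 91.8 to 98.3 CPM in controls.

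Markers of duct and kidney tubule epithelium, the tissues where megalin is best known, were present in both groups. Of 12 such markers 10 had a row and 9 were tested, and 7 rose and 2 fell under both scalings. Of all 12701 tested genes 26.0% were called higher and 26.1% lower with TMM factors, and 5727 higher and 1822 lower with library totals. Their summed level was 565 to 639 CPM with AA2P and 304 to 336 CPM in controls, and UMOD, a marker of a later tubule segment, had at most 0.0411 CPM in any library. SLC34A1, the sodium-phosphate cotransporter of the proximal tubule, rose 5.67-fold to 191, 199.6 and 156 CPM in AA2P libraries 1 to 3, against 37.2, 30.1 and 28.9 CPM in controls, and AA2P library 3 was again the lowest of its group. CDH16, a kidney cadherin, rose 2.28-fold. The 2 that fell were EPCAM, an epithelial adhesion molecule, at 12.4 ± 0.775 CPM with AA2P and 24.9 ± 0.344 CPM in controls, and EMX2, a transcription factor of the developing urogenital tract, at 23.2 ± 3.24 and 38.0 ± 2.38 CPM in the same order (SD, n = 3 each). In bulk RNA a different share of cells of a type and a different amount of RNA per cell cannot be told apart, and the part of these marker changes in the receptor changes was not tested.

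Defining markers of other cell types that had a row were mostly at or near 0. Many others had no single row matched to their symbol, so their level is not known. Rows were found for 3 of 6 Leydig, 2 of 5 endothelial, 4 of 5 macrophage and 2 of 5 germ cell markers. In each of these lists only 1 gene had enough reads to be tested. Summed markers of Leydig cells were 6.35 to 7.38 CPM with AA2P and 5.58 to 5.84 CPM in controls, and those of macrophages 18.7 to 22.7 and 27.0 to 29.9 CPM in the same order. Germ cell markers summed to at most 2.22 CPM in any library. None of the Leydig or germ cell markers was called with TMM factors, and with library totals the Leydig marker STAR was called higher. The macrophage sum was nearly all CD14, which fell 1.39-fold, while CSF1R, the receptor that defines macrophages, had at most 0.0970 CPM. Endothelial markers summed to 6.08 to 8.02 CPM with AA2P and 2.03 to 2.86 CPM in controls, almost all from PECAM1, an adhesion molecule that rose 3.10-fold. Peritubular myoid markers summed to 293 to 344 CPM with AA2P and 413 to 419 CPM in controls, and of 3 tested 1 rose and 2 fell. The sum was mostly TAGLN, which fell 1.22-fold with TMM factors and was not called with library totals. DES (desmin) fell 4.64-fold, and ACTA2 and MYH11, which define smooth muscle, were at or under 0.495 CPM in every library.

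**Figure D4:**
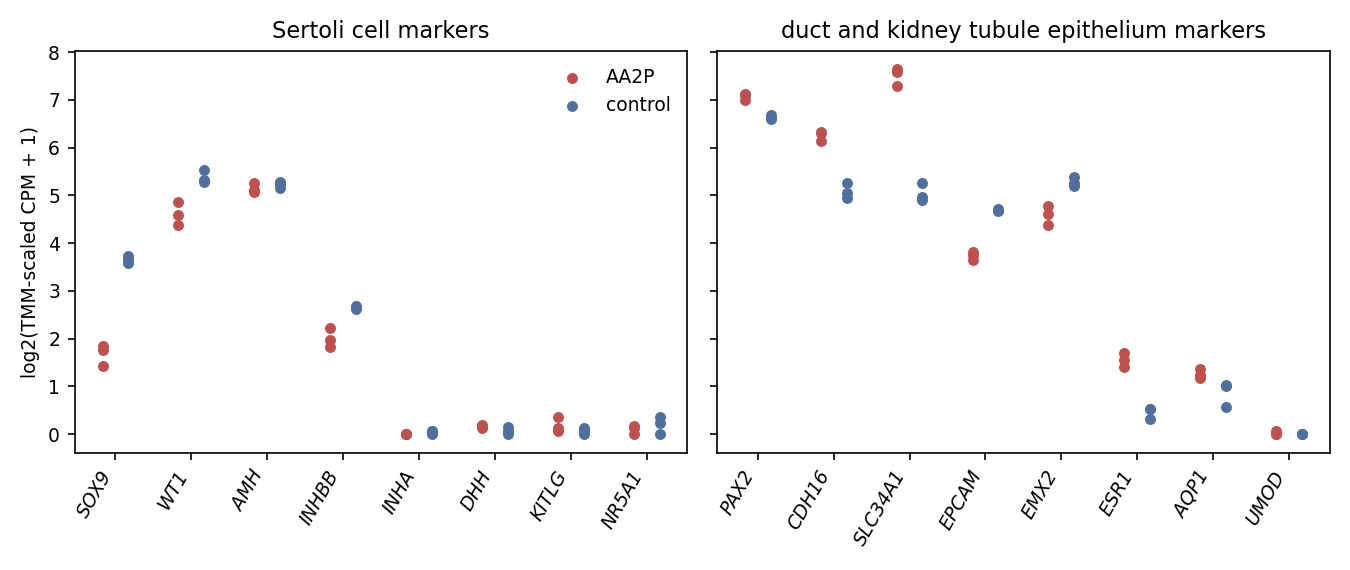
Level of marker genes as log2(TMM-scaled CPM + 1) (y axis) in the 3 AA2P (red) and 3 control (blue) libraries, with Sertoli cell markers on the left and markers of duct and kidney tubule epithelium on the right. Levels are not scaled to transcript length, so only the groups of a gene can be compared. INHA, DHH, KITLG, NR5A1 and UMOD lie near 0 in both groups, and SLC34A1 and CDH16 lie higher with AA2P.

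Related genes were taken from 9 lists, written from textbook knowledge but chosen with earlier results of these data known. They are read against the 52.1% of all tested genes that were called in the edgeR fit over all genes (Benjamini-Hochberg adjusted p of 0.05). Their counts with library totals are read against the 5727 genes called higher and 1822 called lower of 12701 under that scaling. The naming rule took only called genes, 35 from these lists, so all of them pass the threshold by selection. Their adjusted p-values lay between 1.2e-11 (LCN2) and 0.00992 (ABCD4) and are given as a description.

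The relatives of megalin in its receptor family went both ways. Of 10 tested members 3 rose and 4 fell with TMM factors, or 3 and 2 with library totals, with a median log2 fold change of -0.13 or 0.04. VLDLR, a receptor for lipoproteins and reelin, averaged 77.9 ± 4.75 CPM with AA2P and 188 ± 1.28 CPM in controls (SD, n = 3 each). SORL1, a sorting receptor of endosomes, and LRP4 rose 1.77-fold each. None of the 10 was called with a log2 fold change as large as that of LRP2.

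Cytosolic adaptors of receptor tails also moved apart. Of 12 tested genes 5 rose and 3 fell, or 8 and 1 with library totals, and the median log2 fold change was 0.07 or 0.24. MYO6, the motor that pulls endocytic vesicles away from the apical surface, rose 1.41-fold to 256 ± 17.1 CPM with AA2P, against 182 ± 4.36 CPM in controls (SD, n = 3 each), and GIPC1, which connects megalin to that motor, rose 1.23-fold. MAGI1, a scaffold, fell 1.18-fold with TMM factors and was not called with library totals.

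The coat machinery changed little. In the clathrin and AP-2 list 7 of 19 tested genes were called, a share of 36.8%, 2 higher and 5 lower, and all changes lay between -0.28 and 0.30 on the log2 scale. The median was -0.03. With library totals 9 were higher and none lower, with a median of 0.14, so the list has no direction that holds under both scalings. AAK1, PICALM, EPS15 and AP2B1, which regulate or build the coat, fell 1.22-fold, 1.19-fold, 1.17-fold and 1.13-fold with TMM factors, and none of these 4 was called with library totals.

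Genes of early and recycling endosomes split. Of 20 tested genes 5 rose and 7 fell with TMM factors, or 10 and 2 with library totals, with a median of -0.06 or 0.11. MYO5B, a motor of apical recycling endosomes, averaged 55.7 ± 2.54 CPM with AA2P and 111 ± 4.40 CPM in controls (SD, n = 3 each). MICALL1 and RAB11FIP3, which act in recycling, rose 1.71-fold and 1.75-fold, and PIKFYVE, a lipid kinase of endosomes, rose 1.48-fold. These 4 kept their direction and call with library totals.

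Relatives and partners of CLCN5 and OCRL went both ways. Of 6 tested genes of the CLC list 2 rose and 1 fell, a share of 50% called, or 3 and 1 with library totals, with a median of 0.08 or 0.24. CLCN6 and CLCN3 rose 1.95-fold and 1.44-fold, and CLCN4 fell 1.74-fold to 4.85 ± 0.398 CPM (SD, n = 3). Of 11 tested OCRL partners and phosphoinositide phosphatases 2 rose and 5 fell, a share of 63.6% called, or 3 and 4 with library totals, with a median of -0.10 or 0.07. INPP5B, the closest relative of OCRL, fell 1.82-fold to 54.8 ± 6.95 CPM (SD, n = 3). The endosomal proteins APPL1 and APPL2, of which APPL1 binds OCRL, fell 1.36-fold and 1.78-fold, and INPP5A, an inositol phosphate phosphatase, fell 1.84-fold.

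Transcripts of proteins that megalin or cubilin can bind went both ways. Of 19 tested ligand genes 5 rose and 9 fell, or 7 and 5 with library totals, and the median was -0.23 or -0.06. CLU, which encodes clusterin, a chaperone that Sertoli cells secrete, averaged 1301 ± 266 CPM with AA2P and 4228 ± 168 CPM in controls (SD, n = 3 each). PLAU (urokinase) had 103 ± 41.2 and 542 ± 8.12 CPM in the same order, and LCN2 (lipocalin 2, an iron-siderophore carrier) fell 8.10-fold to 8.42 ± 2.52 CPM. AMBP, the precursor of alpha-1-microglobulin and bikunin, rose 3.96-fold to 9.18 ± 0.812 CPM. APOA1, an apolipoprotein, rose 1.59-fold to 164 ± 2.24 CPM with AA2P, against 103 ± 7.30 CPM in controls (SD, n = 3 each). TF, which encodes the iron carrier transferrin, rose at a low level, with 57, 82 and 44 reads in AA2P libraries 1 to 3, against 8, 2 and 5 reads in the controls. The summed level of the ligand list was 2573 to 3553 CPM with AA2P and 6966 to 7343 CPM in controls, with CLU the largest part. B2M, the light chain of the neonatal Fc receptor, was not analysed here, nor were LRP1 and CBLIF (intrinsic factor).

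Genes that handle vitamin cargo went both ways. Of 7 tested genes 1 rose and 4 fell, a share of 71.4% called, or 2 and 2 with library totals, with a median of -0.20 or -0.03. STRA6, a receptor for retinol-binding protein, and VDR, the vitamin D receptor, fell 1.76-fold and 1.77-fold. LMBRD1 and ABCD4, which export vitamin B12 from lysosomes, had log2 fold changes of 0.26 and -0.27; LMBRD1 was not called without control library 1 (0.22), and ABCD4 was not called without control library 2 (-0.22) or with library totals. Other endocytic receptors gave 2 higher and 5 lower of 11 tested, or 4 and 5 with library totals, with a median of 0.01 or 0.18. SORT1 (sortilin), the collagen receptor MRC2, the lipoprotein receptor SCARB1 and the urokinase receptor PLAUR fell 1.78-fold, 3.64-fold, 1.95-fold and 2.97-fold.

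**Figure D5:**
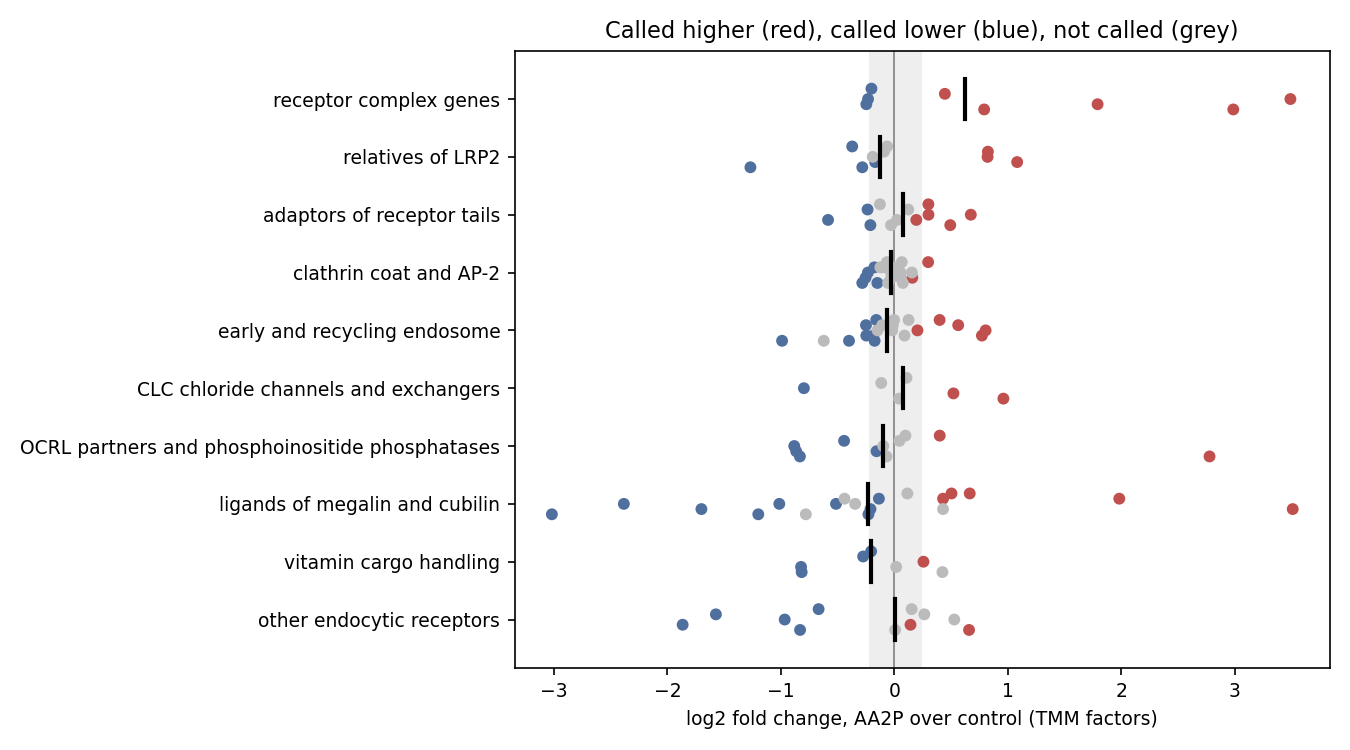
Log2 fold change (x axis, AA2P over control, TMM factors) of every tested gene of the receptor complex and of the 9 related lists, with each point 1 gene and the black bar the list's median. The grey band runs from the lower to the upper quartile of all tested genes. LRP2, CUBN and AMN lie far right of the band, the clathrin and AP-2 genes lie within -0.28 to 0.30, and the ligands reach from -3.02 to 3.51.

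The genes whose profile over the 6 libraries came nearest to the receptors were found by Euclidean distance of log2 CPM from the control mean, among 9221 genes with a symbol and a mean of at least 5 CPM. For LRP2 these were HABP2, a hyaluronan-binding serine protease, at a distance of 0.53, ACSM3, a mitochondrial acyl-CoA synthetase, at 0.54, ECM2 at 0.54, STON2, a sorting adaptor of clathrin-coated pits, at 0.55, and CLRN3 at 0.62. STON2 had 49.3 CPM with AA2P and 7.63 CPM in controls on average. For CUBN they were CALML4, a calmodulin-like light chain of brush border myosin, at 0.22, ABLIM1 at 0.26, the growth factor receptor ERBB4 at 0.27, INSIG1 at 0.27 and ST8SIA1 at 0.28. The distance between LRP2 and CUBN was 2.16, while LRPAP1, OCRL and FCGRT lay within 0.14 to 0.20 of each other. LRP2 and AMN were 0.45 apart, nearer than HABP2. AMN was under the limit of 5 CPM and so not among the genes searched, and its profile rests on few reads. These distances are mostly set by the difference between the groups, which many genes share.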

How the data were processed

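The authors deposited whole-number read counts per Ensembl pig gene for 3 AA2P and 3 control libraries, which are not normalized. Per the submitters' processing notes, reads were made with bcl2fastq and aligned with HISAT2 2.0.5. Total RNA was taken with TRIzol and all libraries shared 1 lane of a HiSeq X-Ten, per the labels. Which counting tool, strand setting, annotation and build were used is not given in the sources used here, so genes that overlap or have near copies are uncertain, and no coordinates are printed. Symbols came from a table of gene names, which gave 1 for 13141 of the 17670 rows. Neighbouring genes came from the RefSeq pig gene table, matched by symbol.

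Counts were tested in R 4.3.3 with edgeR 4.0.16 (quasi-likelihood F test, TMM factors, filterByExpr with the group, group alone in the model) and Benjamini-Hochberg adjustment over 12701 genes. The common biological coefficient of variation was 5.49%. Each standard error is the size of the log2 fold change divided by the root of the F statistic, and 95% intervals use the fit's degrees of freedom. CPM values are TMM scaled, and a level of 3 counts is 0.123 to 0.165 CPM. On simulated counts of the AA2P against control comparison (12620 genes) the procedure found 37 of 50 genes given a log2 change of 0.5, 46 of 50 given 1, 49 of 49 given 2, all 50 given 3, and 9 of its 191 calls were false. Only these genes were changed in the simulation, up or down at random, while 52.1% of tested genes were called in the data. The rates therefore need not hold for the data.

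The 8 genes, the related lists, the marker lists and the tests were chosen with earlier results of these data known. The naming rule took all 8 genes, up to 4 called genes with the smallest p from each list, and the 5 genes with the nearest profile to LRP2 and to CUBN. AMH, INHA, DHH, KITLG, NR5A1, UMOD, EPCAM, EMX2, APOA1, TF, STAR, CSF1R, ACTA2 and MYH11 lie outside it and were named after their values were seen. Some genes that the rule names are left out of the text. Alternatives were DESeq2 size factors, library totals, other filters, DESeq2 1.42.0, limma-voom with limma 3.58.1, a replicate block, leaving out each library and an adjusted p of 0.01.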

Additional observations from a re-analysis of the deposited data

How the results depend on the processing

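Of 267 alternative values 259 kept their direction and side of the threshold, or their count within 1.5 times. Counts were compared as totals only, so a turn of direction within a count is not seen there. The clathrin and AP-2 list is an example. It had 2 higher and 5 lower with TMM factors, against 9 higher and 0 lower with library totals, and was taken as kept. With library totals 5 of the 8 genes were called, all higher, and LRPAP1, OCRL and FCGRT missed the threshold at log2 fold changes of -0.032, -0.077 and -0.062; the calls of all genes were then 5727 higher and 1822 lower, against 3302 and 3313 with TMM factors. LRP2, CUBN, AMN, DAB2 and CLCN5 stayed called and higher under every alternative that gave a value. AMN has no value under the filter of 1 CPM in 3 libraries, where it was not tested. In the list of receptor tail adaptors 5 genes were called at an adjusted p of 0.01, and 5 to 7 with 1 library left out, against 8. None of the 5 nearest profiles was shared when Pearson correlation replaced distance, a count of 0 for LRP2 and 0 for CUBN. With the replicate block 6204 genes were called, against 6615 without it, and LRP2 had a log2 fold change of 2.98. The numbers were not taken to pair the libraries, since the labels do not say that a number marks a shared culture, animal or day. The deviations of same-numbered libraries correlated at -0.04, -0.02 and -0.06. Levels per coding length were not computed, since no transcript or protein lengths were used here.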

Other observations

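In the RefSeq pig gene table the genes beside LRP2 are DHRS9, a retinol dehydrogenase family member, and BBS5, a cilium gene. DHRS9 averaged 3.67 CPM with AA2P and 0.790 CPM in controls, with a log2 fold change of 2.23 and an adjusted p of 9.0e-07 by edgeR's quasi-likelihood test. BBS5 averaged 16.0 CPM with AA2P and 13.8 CPM in controls and was not called (log2 fold change 0.22, adjusted p = 0.0852). TRDMT1, beside CUBN, averaged 23.8 CPM with AA2P and 24.5 CPM in controls and was not called (log2 fold change -0.04, adjusted p = 0.691). SMARCA1 and APLN, on either side of OCRL, and USP27X, beside CLCN5, were not called. These neighbours were looked up after the values of the receptors were known.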
